A study of Mus musculus with 5 samples.

Results

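The 8 genes described here, Hmgcs1, Idi1, Fdps, Fdft1, Sqle, Lss, Cyp51 and Insig1, belong to cholesterol synthesis and its feedback control, and were followed in cancer cells that had colonized the mouse lung. They were chosen by name and not by a measured value, but with earlier results of these data known. They make up 8 of the 23771 genes in the expression table. The set holds 7 enzymes of synthesis, 1 regulator and no uptake gene, so uptake genes are given from a separate list. Female BALB/c mice, 11 weeks old when the lungs were taken, were injected with medium conditioned by pieces of 4T1 mammary tumors (tumor-secreted factors, TSF) or with control medium (CM), which was incubated in parallel without tumor. Both groups received 3 intravenous injections per week for 3 weeks, and then 25000 4T1 cells, a mouse mammary carcinoma line that here carried CD90.1 as a reporter. Lungs were taken at day 16, at metastatic colonization, and cells of 3 mice were pooled into 1 library per group. Single-cell RNA sequencing gave 139 cancer cells from the TSF lungs and 29 from the CM lungs. With 1 library per group no difference between TSF and CM has a replicate check, and no test between treatments was possible.

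Cholesterol is made from acetyl-CoA through mevalonate, isoprenoid units, squalene and lanosterol. When sterols in the endoplasmic reticulum are scarce, the SREBP transcription factors leave it with their escort SCAP, are cut by proteases in the Golgi and switch on nearly every enzyme of the route. When sterols are plentiful, INSIG proteins hold SCAP and SREBP back, and Insig1 is itself an SREBP target. Growing carcinoma cells need cholesterol for new membranes, and the isoprenoid intermediates also feed protein prenylation, ubiquinone and dolichol.

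SREBP proteins act at sterol regulatory elements that lie close to the transcription start, commonly beside boxes for NF-Y and Sp1. RefSeq promoter windows on GRCm38.p6 were matched for 5 of the 8 genes (Cyp51, Hmgcs1, Idi1, Insig1 and Lss). In the 250 bases before the RefSeq start, the core of a sterol regulatory element, searched as TCACNCCAC on both strands, was found in 1 of these 5 genes, Hmgcs1, and in 1.05% of all 32851 promoter windows of that length. The NF-Y box CCAAT was found in 5 of 5 against 33.8% of all windows, and the Sp1 box, searched as GGGCGG, likewise in 5 of 5 against 32.7%. The E-box CACGTG was in 1 of 5, Insig1, against 6.02% of all windows. Such matches describe letters only and show no binding. The search was for exact forms, so a gene without a match is not shown to lack the element. The windows of Hmgcs1 and Insig1 are shown because they hold the sterol element core and the E-box, and because these genes had the lowest TSF to CM ratios of the set. They are written 5′ to 3′ on the plus strand up to the first annotated transcript start. That was the RefSeq start for Hmgcs1 and the GENCODE start for Insig1. Matches of the boxes on either strand are in capitals (ATTGG and CCGCCC are the boxes read on the other strand).
Hmgcs1 (chr13:119690101-119690350): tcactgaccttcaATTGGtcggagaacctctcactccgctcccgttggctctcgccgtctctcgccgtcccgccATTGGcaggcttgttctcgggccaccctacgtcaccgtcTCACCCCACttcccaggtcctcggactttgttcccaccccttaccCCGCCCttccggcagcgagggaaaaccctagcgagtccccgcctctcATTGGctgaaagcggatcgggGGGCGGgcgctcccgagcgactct
Insig1 (chr5:28071162-28071362): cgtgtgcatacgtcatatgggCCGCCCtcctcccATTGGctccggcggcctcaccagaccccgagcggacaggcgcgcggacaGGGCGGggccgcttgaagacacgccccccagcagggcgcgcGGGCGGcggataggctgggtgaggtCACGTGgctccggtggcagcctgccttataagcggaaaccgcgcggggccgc
In Hmgcs1 the sterol element core began 137 bases before the RefSeq start and lay between NF-Y boxes that began at 176 and 45 bases. In Insig1 the E-box began 101 bases before the RefSeq start, which lies after the end of the printed bases.

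The cells behind these values nearly all carried 3 of the 6 carcinoma markers listed, and fewer CM cells than TSF cells carried the other three. The keratin genes Krt8 and Krt18 were seen in 137 and 138 of 139 TSF cells and in 29 and 28 of 29 CM cells. Wfdc2, a secreted epithelial protein, was seen in 139 TSF and 28 CM cells, at 29.6 against 9.84 CP10k. The CD90.1 reporter was seen in 48 TSF cells (34.5%) and 2 CM cells (6.90%), and Cdh1, the epithelial cadherin, in 35 and 2. Epcam, an epithelial surface protein, was seen in 68.3% of TSF cells (59.9 to 76.0%) against 27.6% in CM (12.7 to 47.2%). Of 6 lung epithelial markers 3 were detected, summing to 0.0658 CP10k in TSF against 0.113 CP10k in CM, and those of alveolar type 2 cells, which also make lipid for surfactant, were at 0 in both (Sftpc, Sftpb and Lamp3), where 0 of 139 and 0 of 29 cells allow shares with a UMI of up to 2.16% and 10.3% (3 counts of the total). Of 10 leukocyte markers 6 were detected and none in 10% of the cells, with a summed mean level of 1.04 CP10k in TSF and 0.00958 in CM, while Lyz2, Nkg7, C1qa and Marco were at 0 in both. All 5 endothelial markers were detected, summing to 0.196 against 0.0588 CP10k, and 4 of 6 of fibroblasts and mural cells, summing to 1.04 against 0.498 CP10k. Of the latter Pdgfra was seen in 63 TSF cells (45.3%) against 13 in CM (44.8%) and Dcn in 16 against 2, with Pdgfrb and Cspg4 at 0. Genes induced by stress and tissue dissociation moved with the groups: the 8 listed (Fos, Jun, Junb, Egr1, Atf3, Hspa1a, Hspa1b and Dnajb1) summed to 34.5 CP10k in TSF and 101 CP10k in CM, and the part of these marker and stress genes in the values below was not tested. Median UMIs per cancer cell were 26615 (TSF) and 27679 (CM), median mitochondrial shares were 1.99% and 1.72%, and total UMIs of the cancer cells were 3937739 and 726849. Depth was less alike among the shallower cells, with a lower quartile of 20099 UMIs in TSF and 9821 in CM.

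Across the 8 genes there was no direction common to all. Mean levels are given in CP10k, the UMIs of a gene per 10000 UMIs of a cell averaged over all cancer cells of the library. Their sum was 4.26 CP10k in TSF and 4.23 CP10k in CM, and without Fdps, the gene of highest level, 2.38 and 2.75 CP10k. By mean level 3 genes were higher in TSF (Idi1, Fdps and Sqle) and 5 were lower (Hmgcs1, Fdft1, Lss, Cyp51 and Insig1). All 8 had a UMI in at least 10% of the cells of both libraries, and so did 1 library or both for 10201 of the 23771 genes, against which they are read. By mean level 40.3% of the 10201 genes were higher in TSF, near the 3 of 8 (37.5%). By share of cells with a UMI 2 of the 8 were higher in TSF and 6 lower, while 49.1% of the 10201 genes were higher.

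**Figure D1:**
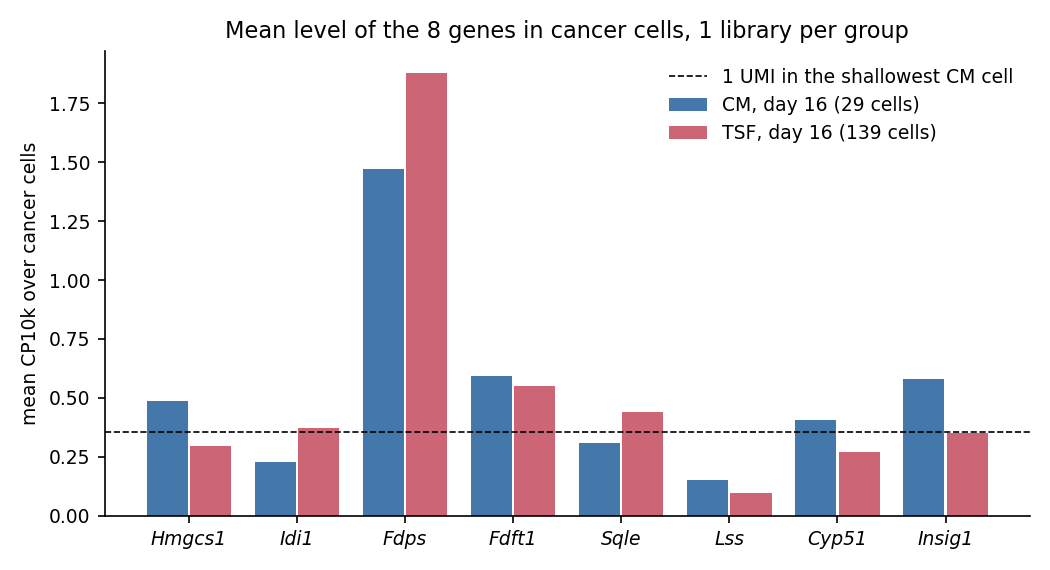
Mean level (CP10k, linear axis from 0) of each of the 8 genes in the cancer cells of the CM library (29 cells, blue) and the TSF library (139 cells, red) at day 16; there are no error bars because each group is 1 library. Fdps, Idi1 and Sqle are higher in TSF and the other genes lower, and the dashed line marks 0.354 CP10k, the weight of 1 UMI in the shallowest CM cell.

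Hmgcs1 encodes the cytosolic synthase that joins acetyl-CoA and acetoacetyl-CoA to HMG-CoA, the precursor of mevalonate (ENSMUSG00000093930, GRCm38 chr13:119690379-119708260, plus strand). Its mean level was 0.298 CP10k in TSF and 0.488 CP10k in CM, a TSF to CM ratio of 0.610. A UMI of Hmgcs1 was nevertheless found in 42.4% of TSF cells (59 of 139, 95% interval 34.1 to 51.1%) against 44.8% in CM (13 of 29, interval 26.4 to 64.3%). The lower mean of Hmgcs1 thus came with a lower level per cell with a UMI, at 0.701 CP10k in TSF and 1.09 CP10k in CM.

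Idi1 and Fdps act on the isoprenoid units: Idi1 (ENSMUSG00000058258, chr13:8885501-8892451, plus strand) isomerizes isopentenyl diphosphate, and Fdps (ENSMUSG00000059743, chr3:89093588-89101959, minus strand) condenses the units to farnesyl diphosphate. Idi1 had 0.370 CP10k in TSF and 0.227 CP10k in CM, a ratio of 1.63 and the highest of the 8. A UMI of Idi1 was seen in 61 TSF cells (43.9%, interval 35.5 to 52.5%) against 9 in CM (31.0%, interval 15.3 to 50.8%). For Idi1 both the share of cells and the mean level were higher in TSF, with overlapping intervals. Fdps had 1.88 CP10k in TSF and 1.47 CP10k in CM, a ratio of 1.28. The share of cells did not follow, since Fdps was seen in 99 TSF cells (71.2%, interval 62.9 to 78.6%) against 21 in CM (72.4%, interval 52.8 to 87.3%).

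Fdft1 and Sqle carry the route into the sterol branch. Fdft1 (ENSMUSG00000021273, chr14:63145150-63179578, minus strand) is squalene synthase, and its levels were the nearest between the groups, at 0.552 CP10k in TSF and 0.594 CP10k in CM with a ratio of 0.930. Fdft1 was seen in 84 TSF cells (60.4%, interval 51.8 to 68.6%) against 20 in CM (69.0%, interval 49.2 to 84.7%). Sqle (ENSMUSG00000022351, chr15:59315077-59331192, plus strand), the squalene epoxidase and a second point of control of flux, had 0.439 CP10k in TSF and 0.309 CP10k in CM, a ratio of 1.42. Sqle showed the largest gap in the share of cells among the 8, with 86 TSF cells (61.9%, interval 53.3 to 70.0%) against 14 in CM (48.3%, interval 29.4 to 67.5%), and the intervals overlapped.

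Lss and Cyp51 close the ring and begin its trimming. Lss (ENSMUSG00000033105, chr10:76531588-76557138, plus strand) makes lanosterol and was the least detected of the 8, with 0.0956 CP10k in TSF and 0.151 CP10k in CM, a ratio of 0.632. A UMI of Lss was found in 27 TSF cells (19.4%, interval 13.2 to 27.0%) against 7 in CM (24.1%, interval 10.3 to 43.5%). Cyp51 (ENSMUSG00000001467, chr5:4081145-4104746, minus strand) removes the 14-alpha methyl group of lanosterol. Its mean was 0.272 CP10k in TSF and 0.406 CP10k in CM, a ratio of 0.670, and it was seen in 50 TSF cells (36.0%, interval 28.0 to 44.5%) against 13 in CM (44.8%, interval 26.4 to 64.3%). For both genes the share and the mean were lower in TSF, and the intervals of the shares overlapped.

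Insig1 (ENSMUSG00000045294, chr5:28071363-28078662, plus strand), the feedback protein and the only one of the 8 that is not an enzyme, had the lowest ratio. Its mean level was 0.349 CP10k in TSF and 0.580 CP10k in CM, a ratio of 0.602. A UMI of Insig1 was found in 56 TSF cells (40.3%, interval 32.1 to 48.9%) against 12 in CM (41.4%, interval 23.5 to 61.1%). As for Hmgcs1, the groups thus overlapped in the share of cells, and the level per cell with a UMI was 0.866 CP10k in TSF and 1.40 CP10k in CM.

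**Figure D2:**
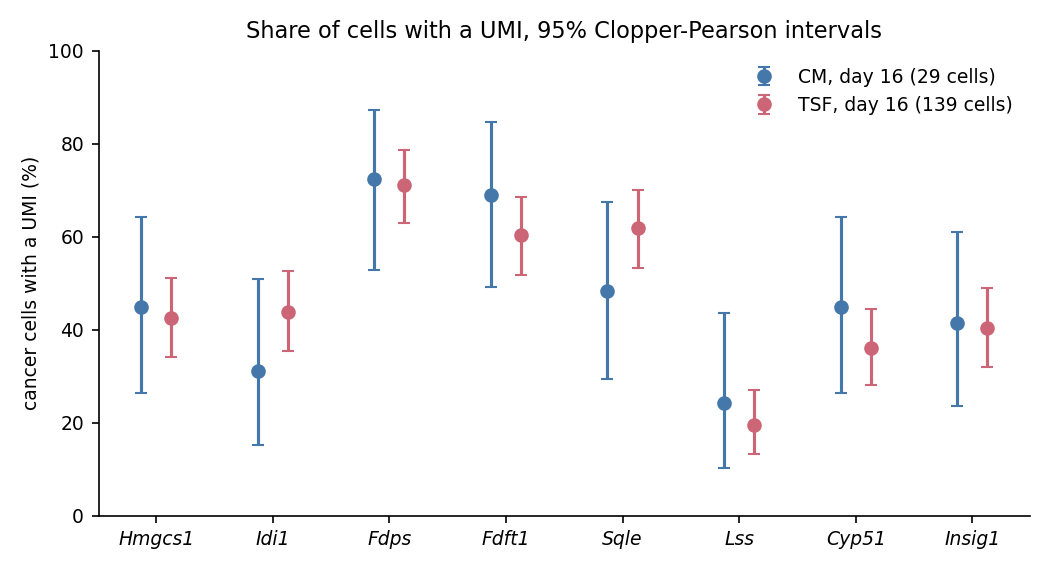
Share of cancer cells with at least 1 UMI of each of the 8 genes (percent) in the CM (blue, 29 cells) and TSF (red, 139 cells) libraries of day 16, with 95% Clopper-Pearson intervals. The 2 intervals overlap for every gene, and the gap is widest for Sqle (61.9% in TSF, 48.3% in CM).

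The intervals of the shares overlapped for 8 of 8 genes, and over all genes they lay apart for 2.65%. These intervals cover counting error only, since UMIs of cells in 1 library say nothing of differences between mice. With 29 CM cells they are wide, so differences of the size seen for Sqle or Idi1 were not detectable at this depth, which is no sign that the groups are alike. No share of cells was set against a cell type that lacks these genes, because sterol synthesis runs in most cells and single-cell values were not used here, and shares were not thinned to 1 depth.

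Differences of a mean have to be read against what 1 molecule weighs. In the CM library 1 UMI in a cell of median depth adds 0.0125 CP10k to the mean, but the shallowest CM cell had 973 UMIs, and 1 UMI in it adds 0.354 CP10k. In the TSF library the shallowest cell had 909 UMIs, and 1 UMI in it adds 0.0791 CP10k. For 7 of the 8 genes the difference between the means was smaller than 0.354 CP10k, for example 0.190 CP10k for Hmgcs1 and 0.231 CP10k for Insig1, and Fdps was the exception at 0.406 CP10k. The CM means of Idi1, Sqle and Lss were themselves below 0.354 CP10k, so the shallowest CM cell held no UMI of these 3 genes if their means are whole UMIs over the cell totals. That was checked, and held, only for the 1373 genes seen in a single CM cell, which these 3 are not. Whether it held one of Hmgcs1, Cyp51, Insig1, Fdft1 or Fdps was not tested.

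On the scale that the study used, log2 of the mean CP10k plus 1, the 8 genes ranged from -0.23 for Insig1 to 0.22 for Fdps, with a median of -0.05 against -0.03 over the 10201 genes. None was at least 1.5-fold higher in TSF, as were 0.755% of all genes, and none was at least 1.5-fold lower, as were 1.95%. That scale leaves little room for genes of low level: with a CM mean below 0.500 CP10k a gene cannot reach 1.5-fold lower even at a TSF mean of 0, and 5 of the 8 genes and 68.2% of all genes lay below that level. By the plain ratio of means, 1 of the 8 was at least 1.5-fold higher (Idi1), against 15.4% of all genes with a value in both libraries, and 3 were at least 1.5-fold lower (Hmgcs1, Lss and Insig1), against 29.9%. The plain log2 ratios of the 8 had a median of -0.34 and those of all genes a median of -0.20.

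The other 14 enzymes of the route showed the same lack of a common direction. On the log2 scale with pseudocount 1 they ranged from -0.29 to 0.18 with a median of -0.01. Of the 14, 6 lay above 0 (42.9%) and 8 below, while 40.3% of all genes lay above 0. On that scale 0 of 14 passed 1.5-fold either way, as did 0.755% (higher) and 1.95% (lower) of all genes. Most of the 14 had a CM mean below 0.500 CP10k and could not be called lower there. By the plain ratio 1 was at least 1.5-fold higher and 2 were lower, against 15.4% and 29.9% of all genes. The mevalonate steps Mvk, Pmvk and Mvd had plain ratios of 1.11, 1.46 and 1.02, although Mvd was seen in only 21 TSF and 2 CM cells. Acat2, which makes acetoacetyl-CoA, had the highest plain ratio at 4.47, from 0.0389 CP10k in CM (4 cells) to 0.174 CP10k in TSF (39 cells), and its shares of 13.8% (interval 3.89 to 31.7%) and 28.1% (interval 20.8 to 36.3%) overlapped. Among the enzymes after lanosterol, plain ratios ran from 0.513 for Sc5d, the lathosterol desaturase, to 1.05 for Ebp, the sterol isomerase. Sc5d had 0.305 CP10k in TSF and 0.594 CP10k in CM, yet was seen in 48.2% and 48.3% of cells. Between them lay Nsdhl (0.549), Tm7sf2 (0.679), Lbr (0.768), Hsd17b7 (0.785), Dhcr7 (0.846) and Msmo1 (0.853), each with overlapping shares.

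**Figure D3:**
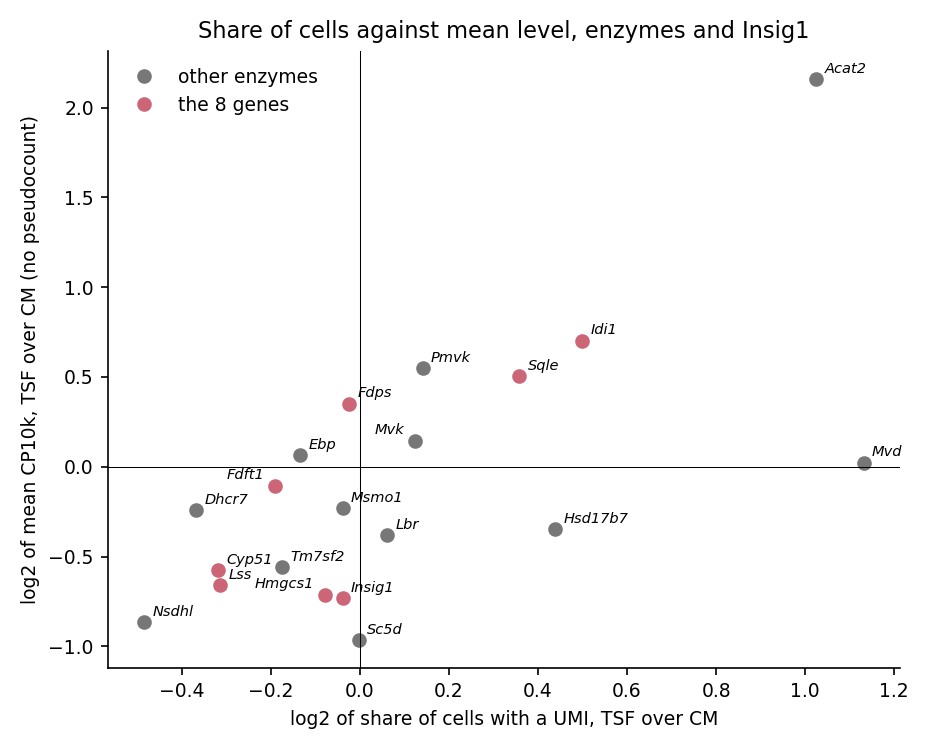
Log2 of the TSF to CM ratio of the share of cells with a UMI (horizontal) against log2 of the TSF to CM ratio of mean CP10k without pseudocount (vertical) for the 8 genes (red) and 12 of the 14 other enzymes (grey), 1 library per group. Idi1 and Sqle are higher on both axes, Hmgcs1, Insig1 and Sc5d lie near 0 on the share axis and below 0 in mean level, and Acat2 stands apart at the upper right with 4 CM cells behind it.

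Share and mean pointed to opposite sides for 1 of the 8 genes (Fdps) and 4 of the 14 other enzymes (among them Lbr, Hsd17b7 and Ebp), and for 2204 of all 10201 genes.

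The machinery that reads sterols was measured for 10 of 11 listed genes. On the scale with pseudocount 1, 0 of the 10 passed 1.5-fold, against 0.755% (higher) and 1.95% (lower) of all genes. Genes with a CM mean below 0.500 CP10k could not be called lower there. By the plain ratio 3 of the 10 were higher and 1 lower past 1.5-fold, against 15.4% and 29.9% of all genes. The master factor of the route, Srebf2, had 0.235 CP10k in TSF and 0.293 CP10k in CM and was seen in 44.6% and 41.4% of cells, and its escort Scap in 26.6% and 24.1%. Srebf1, which leans to fatty acid synthesis, had 0.234 CP10k in TSF and 0.0720 CP10k in CM and was seen in 57 TSF cells (41.0%, interval 32.7 to 49.7%) against 6 in CM (20.7%, interval 7.99 to 39.7%). The highest and lowest of the list on the scale with pseudocount 1 were Sec24c, a coat protein of the vesicles that carry SCAP (0.24), and the protease Mbtps2 (-0.19). For Sec24c the shares lay apart, with 66 TSF cells (47.5%, interval 39.0 to 56.1%) against 4 in CM (13.8%, interval 3.89 to 31.7%). Shares lay apart for 2.65% of all genes. Insig2, the relative of Insig1, had 0.755 CP10k in TSF and 0.659 CP10k in CM. Srebf1, Srebf2, Scap and Insig2 were named here after their values were seen.

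Of the 12 uptake genes 10 passed the filter on low values. Of these likewise 0 passed 1.5-fold on the scale with pseudocount 1, against 0.755% (higher) and 1.95% (lower) of all genes. By the plain ratio 0 were higher and 4 lower past 1.5-fold, against 15.4% and 29.9% of all genes. Lrp1, an endocytic lipoprotein receptor that was named after its values were seen, had 1.51 CP10k in TSF and 1.64 CP10k in CM. Npc2, which hands cholesterol out of the lysosome, was highest on the scale with pseudocount 1 (0.17, from 8.84 CP10k in CM to 10.1 CP10k in TSF). Stard3, a sterol carrier of late endosomes, was lowest at -0.32.

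Of the 12 efflux and esterification genes only 4 passed the filter, with 0 past 1.5-fold and values from -0.48 for Soat1, which esterifies cholesterol for storage, to 0.07 for Nceh1, which frees it again. Soat1 had 0.671 CP10k in TSF and 1.34 CP10k in CM with overlapping shares of 64.7% and 72.4%. Of the 13 of 14 fatty acid synthesis genes that passed the filter 0 passed 1.5-fold, and the list ran from -0.53 for the elongase Elovl6 (0.462 CP10k in TSF, 1.11 CP10k in CM) to 0.19 for Pltp, a phospholipid transfer protein. Of the 14 genes of the isoprenoid branch 1 passed, Pdss1, a subunit of the enzyme that makes the side chain of ubiquinone. For these lists too, 0.755% of all genes were higher and 1.95% lower past 1.5-fold on the scale with pseudocount 1. Genes with a CM mean below 0.500 CP10k could not be called lower there. Pdss1 had 0.113 CP10k in TSF and 0.756 CP10k in CM, -0.66 on the scale with pseudocount 1. It was seen in 38 TSF cells (27.3%, interval 20.1 to 35.5%) against 16 in CM (55.2%, interval 35.7 to 73.6%). These shares lay apart, as they did for 2.65% of all genes. Ggps1, which competes with Fdft1 for farnesyl diphosphate and was named after its values were seen, had 0.195 CP10k in TSF and 0.353 CP10k in CM. By the plain ratio 0 efflux and esterification genes were higher and 2 lower past 1.5-fold. Those counts were 2 and 3 for fatty acid synthesis and 1 and 3 for the isoprenoid branch, against 15.4% and 29.9% of all genes. Among the genes so counted, Soat2 was lower and passed the filter only through CM (10.3% of CM and 2.16% of TSF cells). Scd1 was higher and passed only through TSF (26.6% of TSF and 6.90% of CM cells). The filter favours such calls, so they are no support for a difference.

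**Figure D4:**
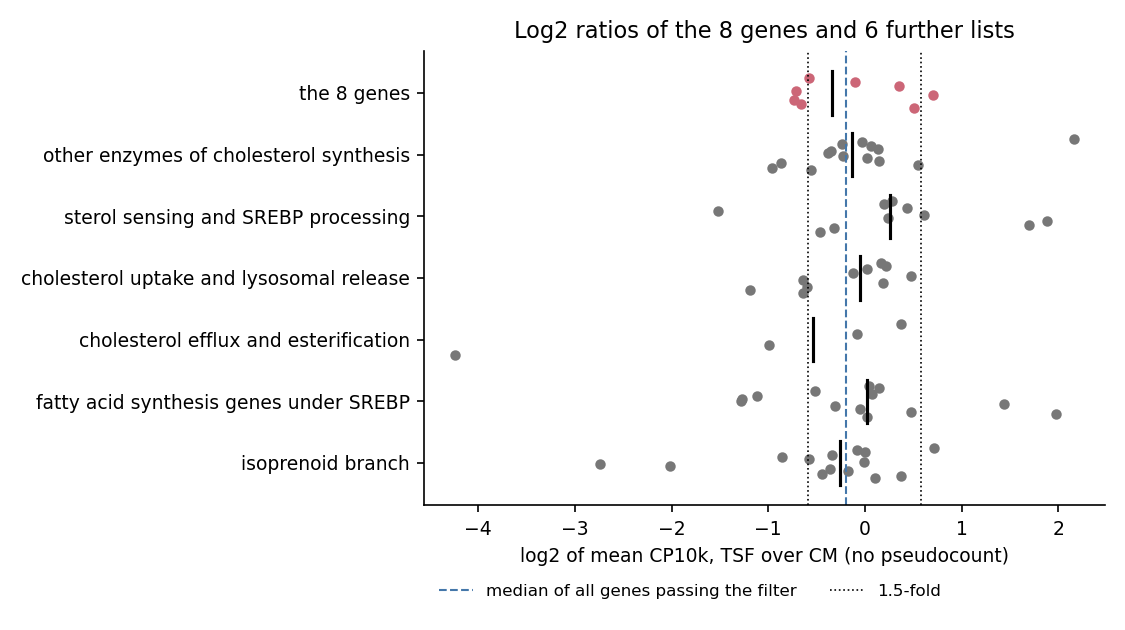
Log2 of the TSF to CM ratio of mean CP10k without pseudocount for the 8 genes (red) and the genes of 6 further lists that passed the filter (grey), 1 point per gene, with the median of each list as a black bar; height within a row has no meaning. The 8 genes lie from -0.73 to 0.70 around a median of -0.34, the dashed line is the median of all genes (-0.20), and the dotted lines mark 1.5-fold.

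A gene set for synthesis deposited with the data covers the route described above, so it is no separate check. A broader set held a larger share of genes past 1.5-fold than all genes on the scale with pseudocount 1, but not by the plain ratio. In the Reactome set for cholesterol biosynthesis, which holds 7 of the 8 genes, 23 of 25 genes passed the filter, 0 were past 1.5-fold and the median was -0.02. In the Hallmark cholesterol homeostasis set, which also holds 7 of the 8, 60 of 75 genes passed the filter, with 1 of 60 higher past 1.5-fold (0.755% of all genes), 6 of 60 lower (1.95% of all genes) and a median of -0.02. None of these 7 was an enzyme of sterol synthesis: Clu, a secreted chaperone, was higher (0.64), and the lower ones were Atf3, a stress transcription factor (-2.31), Tnfrsf12a, a cytokine receptor (-1.01), Actg1, a cytoskeletal actin (-0.99), Errfi1, an inhibitor of EGFR (-0.87), Plaur, the urokinase receptor (-0.77), and Chka, a choline kinase (-0.59). The 6 lower genes had CM means from 1.22 CP10k (Chka) to 67.3 CP10k (Actg1), while 68.2% of all genes had CM means too low to be called lower. Genes of like level were not compared, so the share of 1.95% is no even measure for this set. Atf3 is also one of the stress genes given above. By the plain ratio 9 genes of the Hallmark set were higher and 17 lower past 1.5-fold, near the 15.4% and 29.9% of all genes.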

How the data were processed

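Cancer cells of lungs at day 16 were compared between a TSF and a CM library. Per the paper's methods, the authors mapped 5′ 10x Genomics libraries with Cell Ranger to mm10 (GRCm38.p6), to which the CD90.1 sequence was added, subtracted ambient RNA with a customised SoupX that doubled the estimated contamination, and removed cells with under 800 UMIs, under 200 genes or over 10% mitochondrial RNA. Such subtraction can set low values to 0. Cancer cells were named by the authors at a clustering step from CD90.1 expression and needed no doublet removal. Not every cell so named had a CD90.1 UMI, which was seen in 48 of 139 TSF and 2 of 29 CM cells. Per the submitters' processing notes Seurat 4.1.0 was used. The deposited table gives, per gene and library, the count of cells with a UMI, the percent of cells and the mean CP10k, and the deposited cell table gives UMI counts per cell. The columns with the authors' own fold changes, p-values, ranking and enrichment scores were not used, and neither were 2 libraries in the cell table (11943 cells) that are not among the samples described.

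From these values log2 of (TSF + 1)/(CM + 1) CP10k and the plain ratio of means were computed. Genes with a UMI in at least 10% of cells of either library were kept, and 1.5-fold was the limit for counts. With 1 library per group no p-value was computed. Shares have exact Clopper-Pearson intervals (95%), and a count of 0 allows up to 3 counts of the total. Means have no error, since single-cell values were not used. Genes seen in 1 cell of a library were checked for whole UMIs. The scripts were tested on simulated data. The alternatives were other pseudocounts, filters, fold limits, scalings and measures.

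The 8 genes and the lists were chosen with earlier results of these data known. Named were all of the 8, every other synthesis enzyme and, per further list, genes past 1.5-fold or else the highest and lowest. Genes named outside this rule are marked, and some genes under it are not reported here. Spring1 was not in the table. Gene positions came from GENCODE M21 (GRCm38). Promoters of Fdft1, Fdps and Sqle were not analysed here. The scripts ran under Python 3.11.15 with scipy 1.17.1 for intervals, pandas 2.3.3 and numpy 2.4.6 for tables, and matplotlib 3.10.9 for plots.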

Additional observations from a re-analysis of the deposited data

How the results depend on the processing

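The count of 0 genes of the 8 at least 1.5-fold higher held at a pseudocount of 0.1, without a filter, among genes in at least 50% of cells, after rescaling without 100 Rpl and Rps genes, after centring on the median of all genes and at a higher and a lower fold limit, and became 1 without pseudocount. The count of 0 lower held under the same alternatives except a pseudocount of 0.1, where it was 1, and no pseudocount, where it was 3. Without pseudocount 15.4% of all genes were higher and 29.9% lower. Some alternatives could give only 0 and were no check. All 8 genes passed the filter, the 50% filter keeps a part of them, and the higher fold limit is stricter. At a pseudocount of 1 and 1.5-fold, 5 of the 8 could not be called lower at all. The median log2 ratio of the 8 (-0.05) was -0.22 at a pseudocount of 0.1, -0.34 without one, -0.039 after rescaling, -0.023 after centring and -0.087 per cell with a UMI, and it was 0.14 for the 3 genes that passed the 50% filter (Fdps, Fdft1 and Sqle). Of the 65 genes of the 6 further lists that passed the filter on low values, 0 were higher and 1 was lower, against 0.755% and 1.95% of all genes. Those counts were 5 and 11 at a pseudocount of 0.1. They were 7 and 15 without one, against 15.4% and 29.9% of all genes. The lower count was 0 at 2-fold and 3 at the lower fold limit. At a pseudocount of 0.1 and at the other fold limits the shares of all genes were not computed. The smaller the pseudocount, the more low genes can pass a fold limit by its construction. Single genes of the 8 kept their direction under both scalings, whereas Fdps turned when shares of cells were compared and Fdft1 when the level per cell with a UMI was. Another pseudocount or no filter cannot turn a direction by construction, so these alternatives were no check of it. Wilson intervals moved a bound by at most 1.99 percentage points. Leaving out a library was not possible with 1 per group. No paired analysis was possible because each group compared holds 1 library.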

Other observations

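Several lipid genes beside sterol synthesis had few CM cells with a UMI, and they were named after their values were seen. Scd1, a desaturase that makes monounsaturated fatty acids, was seen in 37 TSF cells (26.6%, interval 19.5 to 34.8%) and 2 CM cells (6.90%, interval 0.846 to 22.8%), with 0.135 CP10k in TSF and 0.0343 CP10k in CM. Fads2, which begins the synthesis of polyunsaturated fatty acids, was seen in 48 TSF cells (34.5%, interval 26.7 to 43.1%) and 3 CM cells (10.3%, interval 2.19 to 27.4%). The intervals of both genes overlapped. Elovl5, an elongase of polyunsaturated fatty acids, lay the other way, with 52 TSF cells (37.4%, interval 29.4 to 46.0%) and 17 CM cells (58.6%, interval 38.9 to 76.5%).

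Of the sterol transport genes Stard3 differed most between its measures. It was seen in 44.6% of TSF cells and 34.5% of CM cells, but had 0.238 CP10k in TSF and 0.544 CP10k in CM. Its difference in mean level, like those of 7 of the 8 genes described above, can be set beside the 0.354 CP10k that 1 UMI in the shallowest CM cell would add.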
